A study of Mus musculus with 2 samples.

Results

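Lactoferrin (Ltf, ENSMUSG00000032496) and 6 further genes that are known mostly as secreted products of estrogen-exposed epithelium are described: Clca3b (ENSMUSG00000037033), Clca3a2 (ENSMUSG00000028262), Ecm1 (ENSMUSG00000028108), Lcn2 (ENSMUSG00000026822), Prss22 (ENSMUSG00000045027) and Arg1 (ENSMUSG00000019987). They were named by symbol, make up 7 of the 19070 genes measured, and were all present in both libraries. No group received estrogen, so induction itself was not measured. Single-cell RNA was measured in mouse endometrium on day 3 of pregnancy with Chromium Flex, an assay in which probe pairs bind transcripts in fixed cells and are counted as unique molecular identifiers (UMIs). The control library came from Erbb3 f/f females, and the other from Erbb3 d/d females, described in the series as lacking Erbb3 in the uterine stroma. Erbb3 encodes a receptor of the ErbB family. The promoter that drove the deletion and the number of mice behind each library are not given in the sources used here. With 1 library per genotype no test was possible, so every interval below is a 95% interval of counting error only, and a difference between genotypes is a difference between 2 preparations.

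Most of these genes are known as products that the uterine and other mucosal epithelia make for the lumen. Estrogen, acting through the receptor Esr1, raises lactoferrin strongly in the mouse uterine epithelium, and lactoferrin has long served as a readout of estrogen action there. Progesterone, acting through Pgr, restrains much of the estrogen response in the luminal epithelium as pregnancy proceeds towards implantation. Ltf encodes lactoferrin, an iron-binding protein with antimicrobial action, and Lcn2 encodes lipocalin 2, which binds iron-carrying bacterial siderophores. Clca3b and Clca3a2 belong to a family of secreted proteins that modulate calcium-activated chloride channels. Prss22 encodes a tryptase-type serine protease, and Ecm1 a secreted matrix glycoprotein. Arg1, arginase 1, is a cytosolic enzyme that converts arginine to ornithine and urea and is also made by some macrophages.

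The sequence just upstream of Ltf is shown because Ltf carried most of the UMIs of the 7 genes. It is a RefSeq window of the GRCm38.p6 build that runs from 250 bases before to 50 bases after the annotated start of transcription, 5′ to 3′ on the gene's strand. Capitals mark the letters AGGTCA, the core that estrogen response elements are built from.

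Ltf (chr9:111019042-111019341, plus strand): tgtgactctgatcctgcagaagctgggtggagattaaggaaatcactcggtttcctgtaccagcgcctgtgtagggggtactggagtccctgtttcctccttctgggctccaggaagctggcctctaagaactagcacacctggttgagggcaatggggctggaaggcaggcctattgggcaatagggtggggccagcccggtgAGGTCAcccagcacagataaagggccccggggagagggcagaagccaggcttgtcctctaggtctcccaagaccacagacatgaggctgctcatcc

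The windows of Ltf, Lcn2 and Ecm1 were searched for short motifs on both strands. The full palindromic estrogen response element, searched as GGTCA, any 3 bases and TGACC, was in 0 of the 3 windows and in 0.0700% of all 32851 windows of the same length. The letters AGGTCA were in 1 of the 3, starting 46 bases before the start in Ltf, and in 16.3% of all windows. TATAAA was in the Ecm1 window, 27 bases before the start, and in 13.6% of all windows. Such matches describe letters and not binding sites. Sequence beyond these windows and imperfect palindromes were not searched, so the 0 holds only for the exact pattern within the windows.

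The close copies within the Clca3 family matter for reading the counts. In GENCODE vM21, the longest protein-coding transcripts of Clca3a2 and Clca3b were 81.6% identical over 3144 aligned bases. Those of Clca3a2 and its other close copy Clca3a1 were 96.4% identical over 3427 bases, with an identical run of 242 bases. The probe sequences were not analysed here, so a division of UMIs between these copies is uncertain.

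In all, 6819591 UMIs over 5783 barcodes were deposited for f/f and 2866862 over 2125 for d/d. Barcodes with at least 200 genes and at most 10% mitochondrial UMIs were used, which left 5503 f/f and 1830 d/d cells, and all those left out exceeded the mitochondrial limit. A cell was called epithelial when it had at least 3 UMIs of 14 epithelial markers and these were at least 60% of all class-marker UMIs, and other classes likewise. None of the 7 genes took part. This gave 1821 f/f and 698 d/d epithelial cells, with medians of 944 and 875 UMIs, and 1524 and 354 stromal cells, with medians of 772.5 and 733. A further 1966 and 719 cells stayed ungated, and 400 and 152 of the epithelial cells sat exactly at 3 marker UMIs. No full barcode was shared by the libraries, and 158 shared their first 16 bases. Erbb3 itself had 20 UMIs in f/f stromal cells (13.1 CPM, counts per 1000000 UMIs of the class, 8.01 to 20.3) and 2 in d/d stromal cells (6.29, 0.761 to 22.7), so its loss from stroma was not detectable at this depth. In epithelial cells it had 159 UMIs (79.3 CPM, 67.4 to 92.6) in f/f and 29 (42.3 CPM, 28.3 to 60.8) in d/d, so the epithelial level was lower in d/d beyond counting error, although the deletion is described as stromal. Whether its probes lie in the deleted part is not known.

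The leading feature of the 7 genes in these data was a single f/f barcode. One epithelial barcode held 597 UMIs of the 7 genes, which was 7.30% of its 8180 UMIs, and it was the only barcode of either library with all 7 detected. It was singled out after these counts were seen. Ltf was its most abundant gene with 296 UMIs, and Ecm1, tied for the second place, had 104. Clca3b had 71 UMIs in it, Clca3a2 53, Prss22 27, and Lcn2 and Arg1 23 each. The next highest f/f epithelial cell had 10 UMIs of the 7 genes, and the highest d/d epithelial cell had 5.

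Each gene depended on this barcode to a different extent. It supplied 71 of the 71 Clca3b UMIs of the f/f cells used, and 98.6% of those in the whole library. It held 92% of the Arg1 UMIs and 91.4% of the Clca3a2 UMIs found in f/f epithelial cells. For Ecm1 the share was 68.0% and for Prss22 65.9%. Lcn2 and Ltf rested on it least, at 38.3% and 37.3%. Clca3b was thus, in the f/f cells used, a gene of 1 barcode, whereas Ltf was detected in 338 further epithelial cells.

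The barcode passed the epithelial gate with 139 UMIs of the epithelial markers, of which Krt7 had 51, Elf3 36 and Krt19 19. Relative to the other f/f epithelial cells Krt7 was at 20.1-fold, Elf3 at 6.87 and Krt19 at 2.30. Krt8 was at 0.87, Cldn3 at 0.79 and Epcam at 0.73. The barcode had 5 UMIs of the stromal and 0 of the myeloid, endothelial and lymphoid markers, with 2.75% mitochondrial UMIs and 2847 genes. Among epithelial subtypes it belonged to the Muc4-type, with 7 UMIs of Muc4 and Ptpn22, and it had 0 UMIs of the glandular, Lrp2-type and cell-cycle markers. Clustering without the 7 genes placed it in an epithelial cluster that held 214 control and 266 d/d cells. Of the neutrophil markers it had 4 UMIs of S100a9 and 1 of S100a8, and 0 of Ly6g, Csf3r, Mmp8 and Ngp. These 5 UMIs were 611 CPM of the barcode, against 2.0 CPM in the other f/f epithelial cells. The barcode was the deepest epithelial one among those of at most 10% mitochondrial UMIs, with 8.67 times the f/f median. Whether it held more than 1 cell was not tested.

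Beyond the 7 genes, the barcode held others that were at 0 in the remaining f/f epithelial cells. Ppbp, which encodes a CXC chemokine known from platelets, had 39 UMIs in it, at least 3175-fold above the other f/f epithelial cells when their 0 is set to a limit of 3 counts. Muc13, a membrane mucin, had 21, Psca, a GPI-anchored surface protein, 17, the carboxylesterase gene Ces2f 16 and the serine protease gene Prss27 15, all against 0 elsewhere in f/f and d/d epithelial cells. AA467197 had 37 UMIs against 1 in the other f/f epithelial cells and 2 in d/d, and Ifit1bl1 had 26 against 2 and 2. The integrin gene Itgam, which was not among the myeloid or neutrophil markers used here, had 13 against 7 and 2. That was 454-fold above the other f/f epithelial cells. Padi1, which encodes a peptidylarginine deiminase, had 53 UMIs against 233 and 136 spread over the other cells, and Clca3a1 had 4 against 2 and 0. These genes were named after their values were seen. The plot of UMIs per epithelial barcode shows the distance between this barcode and all others.

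**Figure D1:**
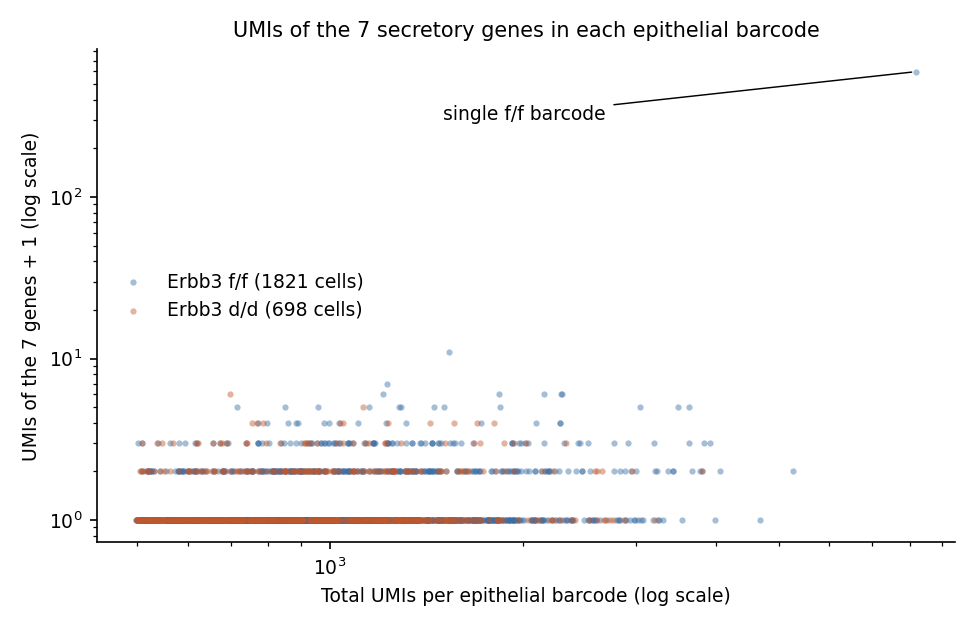
Each point is 1 epithelial barcode of the f/f (blue) or d/d (orange) library, with its total UMIs on the x axis and its UMIs of the 7 genes plus 1 on the y axis, both on log scales. A single f/f barcode with 597 UMIs of the 7 genes stands apart, and the next f/f barcode has 10.

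The comparison of the genotypes turned on this 1 barcode. Summed over the 7 genes, f/f epithelial cells had 1201 UMIs, or 599 CPM, and d/d epithelial cells had 234 UMIs, or 341 CPM. On the log2 scale, d/d relative to f/f was at -0.81 (-1.02 to -0.61), and this quantity is the log2 ratio given from here on. Without the barcode, a choice made after its counts were seen, f/f had 604 UMIs and 302 CPM, and the log2 ratio was 0.18 (-0.05 to 0.40), or -0.02 when scaled to the epithelial markers in place of all UMIs. The lower d/d level thus rested on 1 of 1821 f/f epithelial barcodes, and without that barcode the interval included 0. Under other choices of cells it did not: still without the barcode, the ratio was 0.22 (0.01 to 0.42) with a gate of 2 UMIs, 0.34 (0.15 to 0.53) with epithelial cells taken from Leiden clusters, 0.47 (0.34 to 0.59) with all deposited barcodes and 0.59 (0.27 to 0.90) without cycling cells. Standardised to the f/f subtype shares it was -0.17, with no interval. That value gives the Lrp2-type its f/f weight, though the d/d level of that type came from 22 cells with 5 UMIs of the 7 genes. Neither equal levels nor a d/d difference can therefore be read from the sum. The median gene of these cells was at a log2 ratio of -0.02.

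Lactoferrin followed the same course. It had 793 UMIs (395 CPM) in control cells and 181 (264 CPM) in d/d, a log2 ratio of -0.58 (-0.82 to -0.35). Without the barcode f/f had 497 UMIs (249 CPM) and the ratio was 0.09 (-0.17 to 0.33), which includes 0. This too moved with the cells taken. Without the barcode the ratio was 0.27 (0.05 to 0.47) with Leiden clusters and 0.49 (0.36 to 0.63) with all deposited barcodes. It was -0.11 (-0.36 to 0.14) when scaled to the epithelial markers and -0.40 when standardised to the f/f subtype shares. The -0.40 has no interval and leans on the 22 d/d Lrp2-type cells, which had 3 Ltf UMIs. Lcn2, the other iron-linked antimicrobial gene, was at 29.9 CPM (60 UMIs) in f/f and 26.3 CPM (18 UMIs) in d/d, at -0.19 (-1.04 to 0.59). Without the barcode it had 37 f/f UMIs (18.5 CPM) and a ratio of 0.50 (-0.40 to 1.35).

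Ecm1 was at 153 UMIs (76.3 CPM) in f/f and 20 (29.2 CPM) in d/d, a log2 ratio of -1.39 (-2.14 to -0.71). Without the barcode f/f had 49 UMIs (24.5 CPM) and the ratio was 0.25 (-0.58 to 1.03). Prss22 had 41 and 7 UMIs (20.4 and 10.2 CPM), at -1.0 (-2.40 to 0.17), and without the barcode 14 and 7, at 0.54 (-1.01 to 1.95). The Ecm1 interval lay below 0 with the barcode and not without it, and that of Prss22 included 0 both times.

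The Clca3 pair and Arg1 had almost no UMIs outside the barcode. Clca3b had 71 control UMIs and 1 d/d UMI, with a log2 ratio of -4.60 (-9.92 to -2.08). In the other 1820 f/f epithelial cells it had 0 UMIs, which allows up to 1.5 CPM, or cells with a UMI up to 0.165%. Clca3a2 had 58 and 5 UMIs, at -1.99 (-3.66 to -0.68), and without the barcode 5 and 5, at 1.54 (-0.58 to 3.66). Arg1 had 25 and 2 UMIs, at -2.09 (-5.22 to -0.09), and 2 and 2 UMIs without the barcode. No level of these 3 genes could be compared between the genotypes once the barcode was set aside.

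Only Ltf and Ecm1 reached 100 UMIs over both libraries, the minimum set for counting 2-fold differences. With the barcode 1 of these 2, Ecm1, was past 2-fold, against 9.39% of all 6413 genes counted (4.72% higher in d/d and 4.66% lower). Without it Ltf alone was counted and was not past 2-fold, against 9.35% of 6405 genes, so neither count sets these genes apart. The plot of member levels gives all values with and without the barcode.

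**Figure D2:**
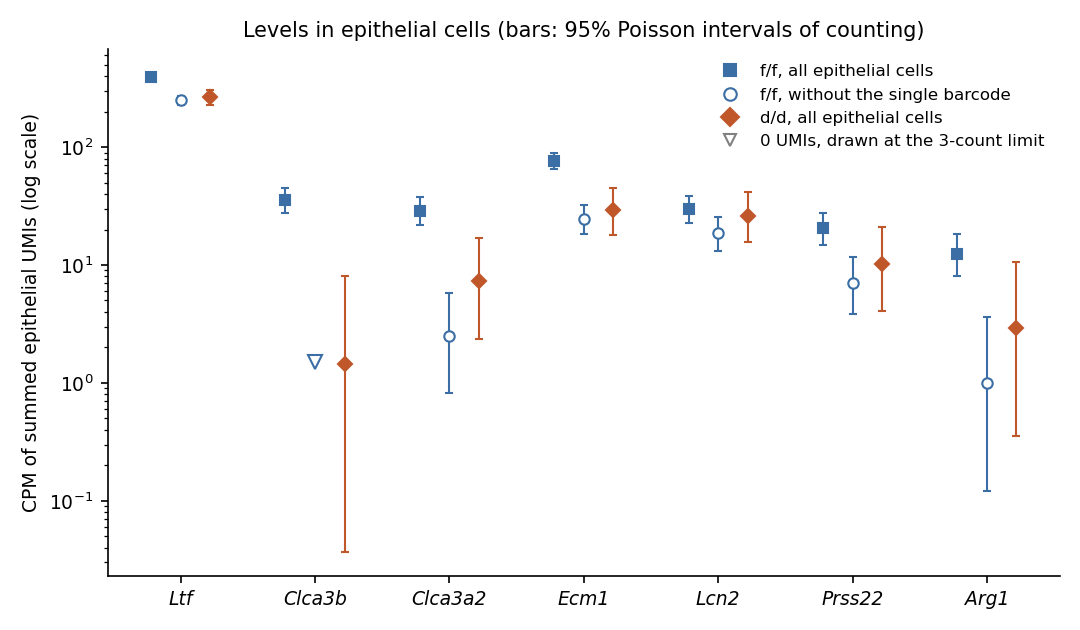
Levels of the 7 genes in summed epithelial cells, in CPM on a log scale, for f/f with (filled squares) and without (open circles) the single barcode and for d/d (diamonds). Bars are 95% Poisson intervals, and a triangle marks 0 UMIs at the limit of 3 counts. Without the barcode each f/f interval overlaps the d/d interval where UMIs were present.

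Outside the epithelium the genes were sparse, and Ltf had the most UMIs of the 7. In f/f its level was 249 CPM in epithelial cells without the barcode, 180 in ungated cells, 62.2 in endothelial cells (5 UMIs) and 51.8 in stromal cells (79 UMIs). The epithelial level was above the stromal one by a log2 of 2.26 (1.92 to 2.62). In d/d the levels were 264 CPM in epithelial cells, 240.5 in ungated, 141 in stromal (45 UMIs) and 128 in endothelial cells (3 UMIs), and those of epithelial and ungated cells lay within counting error of each other. Myeloid and mesothelial cells had 0 or 1 Ltf UMIs in each library, and the smooth muscle and pericyte class 1 and 0. No cell passed the neutrophil gate.

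Stromal Ltf was higher in d/d, at 141 against 51.8 CPM, a log2 ratio of 1.45 (0.89 to 1.99). Of all 5329 genes counted in stromal cells 4.03% were past 2-fold, 1.13% higher in d/d and 2.91% lower. Ltf was the 1 of the 7 genes counted there. Relative to the epithelium of its own library, stromal Ltf was at 20.8% (16.2 to 26.5%) for f/f and at 53.6% (37.7 to 74.6%) for d/d. The 14 epithelial markers, which the gate itself keeps low in stromal cells, were at 6.89 to 22.9% of their epithelial level in f/f stroma and at 7.83 to 26.8% in d/d stroma. Per 100 UMIs of these markers, the Ltf UMIs of stromal cells were at 8.48 for f/f against 16.4 for d/d. Other genes of the epithelial lists took no part in the gate. Of these Wfdc2 was at 10.9% (8.74 to 13.5%) of its epithelial level in f/f stroma and at 23.3% (16.3 to 32.4%) in d/d stroma, and Lrp2 at 13.6% (12.0 to 15.5%) and 32.6% (16.7 to 58.7%). Tmprss2 was at 26.7% and 23.9%, and Padi1 at 24.2% and 23.8%. Muc1 was at 25.2% and 31.9%, and Cxcl15 at 96.1% (63.6 to 144%) and 71.8% (16.9 to 237%). Prss8 was at 13.8% in f/f and had 0 UMIs in d/d stroma. The part that free RNA had in stromal Ltf was not tested. Ecm1 did not separate the classes once the barcode was set aside, with stromal levels of 98.9% (62.8 to 155%) and 140.0% (64.0 to 296%) of the epithelial ones.

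Within the f/f epithelium the CPM of Ltf was lower in Lrp2-type luminal and glandular cells than in cells without a subtype. Subtypes were gated by at least 2 UMIs of their own markers, none of them among the 7 genes. Cells without a subtype had 309 Ltf CPM (828 cells), Lrp2-type luminal cells 211 (830 cells) and glandular cells 162 (134 cells). In the same order, 18.7%, 18.9% and 14.2% of the cells had an Ltf UMI, at median depths of 830, 1071 and 1008.5 UMIs. The log2 ratio to the cells without a subtype was -0.55 (-0.83 to -0.28) for the Lrp2-type and -0.93 (-1.55 to -0.36) for glandular cells. Muc4-type luminal cells had 406 CPM without the barcode, from 14 UMIs in 28 cells, at 0.39 (-0.50 to 1.17). Lcn2 was lower in Lrp2-type cells as well, with 12 against 21 UMIs (11.9 and 26.7 CPM), at -1.16 (-2.32 to -0.07), and Ecm1 was at -0.49 (-1.41 to 0.43). With all deposited barcodes the Ltf ratio of the Lrp2-type was 0.07.

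The same order could not be read in d/d, where 22 cells were Lrp2-type, 22 Muc4-type and 13 glandular, with 3, 7 and 2 Ltf UMIs. The 641 d/d cells without a subtype had 272 Ltf CPM, against 309 in f/f, a log2 ratio of -0.18 (-0.48 to 0.11). Lrp2, which gates the Lrp2-type, itself differed between the libraries, so the numbers of these cells were not compared.

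Cycling cells, those with at least 2 UMIs of cell-cycle markers, had less Ltf than the other epithelial cells in d/d. In f/f, with the single barcode left out, the interval of that ratio included 0. The d/d cycling cells had 199 Ltf CPM (411 cells) and the other epithelial cells 394 (287 cells), a log2 ratio of -0.99 (-1.42 to -0.55). The f/f levels without the single barcode were 224 (396 cells) and 259 CPM (1424 cells), at -0.21 (-0.51 to 0.08). Among cells that were not cycling, again without the barcode, Ltf was higher in d/d than in f/f, at 0.60 (0.26 to 0.94). With the barcode kept this ratio was -0.24 (-0.58 to 0.08), so the higher d/d level rested on leaving it out. Among cycling cells the ratio was -0.17 (-0.57 to 0.23). Whether the ratios of cycling and other cells differ was not tested. Cycling cells were also deeper, with medians of 1320 and 990 UMIs against 880 and 701.

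**Figure D3:**
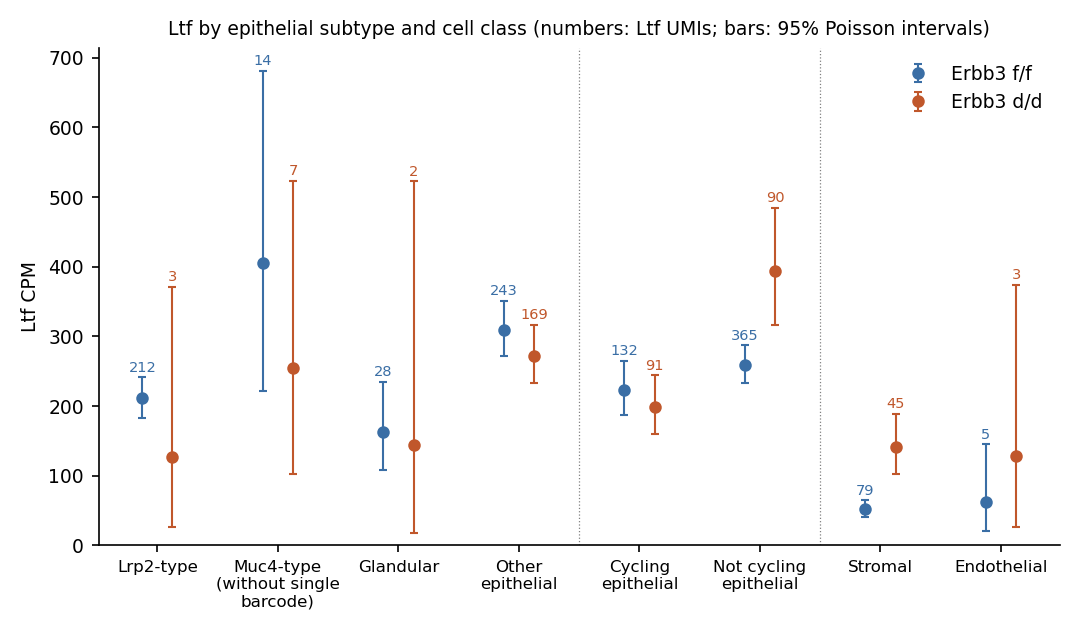
Ltf in CPM in epithelial subtypes, in cycling and other epithelial cells, and in stromal and endothelial cells of the f/f (blue) and d/d (orange) libraries. Bars are 95% Poisson intervals and the numbers are Ltf UMIs. The single f/f barcode is left out of the Muc4-type cells and of the cells that were not cycling. The f/f Lrp2-type and glandular cells lie below the other epithelial cells, and d/d stromal cells lie above f/f stromal cells.

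The Ltf UMIs of the remaining cells were few per cell and spread over many barcodes. The part that free RNA had in this spread was not tested. Of the 1820 f/f epithelial cells other than the barcode 18.6% had an Ltf UMI (16.8 to 20.4%), while 19.8% of the 698 d/d cells had one (16.9 to 22.9%). The difference was 1.20 percentage points (-2.24 to 4.81). Of the f/f cells with Ltf 237 had 1 UMI, 71 had 2 and 13 had 3, and in d/d these numbers were 104, 27 and 6. In stromal cells the shares were 4.00% in f/f and 9.32% in d/d. After each cell was thinned to 500 UMIs, leaving out 1 shallower epithelial cell per library, the epithelial shares were 10.1% and 12.2% and the stromal ones 2.18% and 6.5%. Read against depth, Ltf was at 218 to 271 CPM over 4 depth ranges of control cells, and in d/d ran from 330 CPM in cells under 700 UMIs to 122 (52.8 to 241) in 26 cells of at least 2000.

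Neutrophils also make lactoferrin and lipocalin 2. The epithelial gate itself keeps neutrophil and myeloid markers low, so their levels in the gated cells are given as values only, and the part of neutrophils in Ltf was not tested. All f/f cells used held 67 UMIs of the 6 neutrophil markers (12.1 CPM) and all d/d cells 29 (16.9 CPM), and the single barcode held 5. The 338 f/f epithelial cells with Ltf had 0 UMIs of the 6 neutrophil markers, and the 138 d/d cells had 1 UMI. Over all epithelial cells other than the barcode the neutrophil markers summed to 4 control UMIs (2.0 CPM) and 2 d/d UMIs (2.92 CPM). The 8 myeloid markers were at 40.9 CPM in f/f cells with Ltf and at 60.4 in those without it, and in d/d at 100.3 and 69.0.

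The 7 genes were seldom found together outside the single barcode. No other f/f epithelial cell had more than 3 of them, and no d/d epithelial cell more than 2. In f/f 1409 epithelial cells had none, 387 had 1, 23 had 2 and 1 had 3. The d/d numbers were 525 with none, 157 with 1 and 16 with 2. Of the 21 pairs of genes, 8 had any cell with both among control cells and 5 among d/d cells.

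Pairs with Ltf made up most of these cells. Ltf and Lcn2 met in 8 f/f cells and 5 d/d cells, and Ltf and Ecm1 in 7 and 5. Among f/f cells with Lcn2 24.2% had Ltf (11.1 to 42.3%), against 18.5% of cells without Lcn2 (16.7 to 20.3%). In d/d these shares were 31.3% (11.0 to 58.7%) and 19.5% (16.6 to 22.7%). Among f/f cells with Ecm1 15.9% had Ltf (6.64 to 30.1%), against 18.6% without Ecm1. Ecm1 and Lcn2 met in 3 f/f cells, so 6.82% of cells with Ecm1 had Lcn2 (1.43 to 18.7%), against 1.69% of cells without it (1.14 to 2.40%). The difference in Ltf between f/f cells with and without Lcn2 was 5.78 percentage points (-7.51 to 23.9). With all deposited barcodes it was 25.3 (10.7 to 40.2), and after thinning to 500 UMIs, where 0 of 18 cells with Lcn2 had Ltf, it was -10.2 (-11.7 to 8.36). Of these intervals only that with all deposited barcodes lay above 0. The thinned value rests on few cells and its interval overlaps the unthinned one, so no effect of depth can be read from it. Whether Ltf and Lcn2 occur together was thus not settled.

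The genes whose level was most like that of the 7 in f/f epithelium were largely replaced when the single barcode was left out. They were ranked by CPM in the 128 f/f epithelial cells with at least 2 UMIs of the 7 over the 1409 with none, among 699 genes with at least 50 UMIs in the former. The first 6 were Nupr1, Plac8, Fth1, Padi1, Spns2 and Clec2d, with log2 ratios of 2.82 to 1.74, and Krt7, Ahnak, Sat1 and H2-Q6 followed at 0.94 to 0.83. In d/d, which the ranking did not use, Nupr1, a stress-response gene, was at -0.32 (-1.41 to 0.61) and the ferritin heavy chain gene Fth1 at -2.49 (-7.82 to 0.04). Clec2d was the only one of the 10 with a d/d interval above 0, at 1.35 (0.18 to 2.38), from 10 and 39 UMIs. With the barcode left out the list became H2-Q6, Slc7a6os, Capn5, Tra2a, Arhgef2, mt-Nd4, Ikzf3, mt-Nd5, Aebp2 and Supt6, at 0.90 to 0.62. H2-Q6 was the 1 gene in both lists. Of the second list mt-Nd5 alone had a d/d interval above 0, at 0.66 (0.10 to 1.17). The share of all ranked genes with such an interval is not given here, so neither count sets these genes apart. The cells with at least 2 UMIs were deeper than those with none, with medians of 1194 and 906 UMIs among control cells, or 989 and 840 among d/d cells.

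Among other genes on a list of estrogen-induced genes, Greb1, Wnt7a, Ccnd1 and others were higher in d/d epithelial cells. Ltf without the barcode was at 0.09 under the same choice of cells. Whether estrogen raises each listed gene in this tissue was not checked. The lists were drawn up with earlier results of these data known, so their direction is no independent evidence. Of 34 estrogen-induced genes listed, 30 were in the files and 12 reached 100 UMIs. Of these 6 were at least 2-fold higher in d/d and 0 lower, against 4.70% and 4.65% of all genes counted. The median log2 ratio of the 12 was 0.93, against -0.02 over all genes. Scaling to the epithelial markers shifted every ratio by -0.20, the median of all genes to -0.22 and that of the 12 to 0.74, with 4 at least 2-fold higher. The 6 were Greb1, a coregulator induced by Esr1 (24.5 CPM in f/f and 123 in d/d, log2 2.32, 1.80 to 2.86), the cyclin gene Ccnd1 (1.45), the Wnt ligand gene Wnt7a (1.36), the replication helicase genes Mcm3 (1.22) and Mcm2 (1.01), and the mucin gene Muc4 (1.16). Ccnd1, Mcm2 and Mcm3 are also cell-cycle genes, and cycling cells were 396 of the 1820 f/f cells and 411 of the 698 d/d cells. Ltf, at 0.09, was below 11 of these 12 genes, the exception being Muc1 at -0.40.

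Progesterone-induced genes lay mostly on the other side. Of 14 listed, 9 reached 100 UMIs, with 3 at least 2-fold lower in d/d, 1 higher and a median log2 ratio of -0.92, or 5 lower, 1 higher and -1.12 with marker scaling. Lrp2, an endocytic receptor gene, was at 1274 CPM in f/f and 125 in d/d (-3.34, -3.67 to -3.03). Acod1, which encodes the itaconate-making enzyme, was at -3.14 and the kinase gene Sgk1 at -1.99. Alox15, a lipoxygenase gene, was at 1.21 (1.01 to 1.41). Lrp2 also defines a subtype, so its value and the gating of Lrp2-type cells are not independent.

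Of 12 receptors and coregulators listed, 5 were counted, 0 were past 2-fold and the median was -0.10. Gper1, a membrane receptor for estrogen, fell short of the minimum of 100 UMIs with 91 in f/f and 5 in d/d, at 45.6 and 7.29 CPM (-2.64, -4.30 to -1.37). Esr1 had 845 CPM in f/f and 807 in d/d (-0.07, -0.21 to 0.07), and Pgr had 393 and 242 (-0.70, -0.95 to -0.45). The 37 other antimicrobial and secretory genes had 6 counted members with a median of -0.26. In this list Prss8, a membrane-anchored serine protease gene, was the 1 past 2-fold, at 47.6 and 13.1 CPM (-1.86, -3.03 to -0.87). The IgA transporter gene Pigr was at 0.81 (0.42 to 1.19) and the protease inhibitor gene Wfdc2 at -0.08 (-0.26 to 0.09). With a minimum of 20 UMIs in place of 100, 14.3% of all genes were past 2-fold, 7.2% higher in d/d and 7.13% lower. At that minimum 11 of 25 estrogen-induced genes were higher and 0 lower, and of 11 progesterone-induced genes 1 was higher and 4 lower. The antimicrobial and secretory genes then had 4 of 13 lower and 0 higher, with a median of -0.37, and Gper1 was the 1 of 7 receptors and coregulators past 2-fold.

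In stromal cells 8 estrogen-induced genes were counted, with a median of 0.25. Ramp3, a receptor-modifying protein gene, was at 1.07 (0.58 to 1.55) and the cyclin gene Ccnd2 at -1.95 (-3.11 to -0.99). Of 7 progesterone-induced genes Il13ra2 was at -2.15 and Lrp2 at -2.09, with a median of -0.79. Of 2 antimicrobial and secretory genes Wfdc2 was at 1.01 (0.43 to 1.56). The shares of all genes at least 2-fold higher and lower in stroma were 1.13% and 2.91%. With a minimum of 20 UMIs 11.4% of all genes were past 2-fold in stroma, 4.69% higher and 6.72% lower. Then 5 of 22 estrogen-induced genes were higher and 1 lower, with a median of 0.64, and of 12 progesterone-induced genes 1 was higher and 3 lower.

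**Figure D4:**
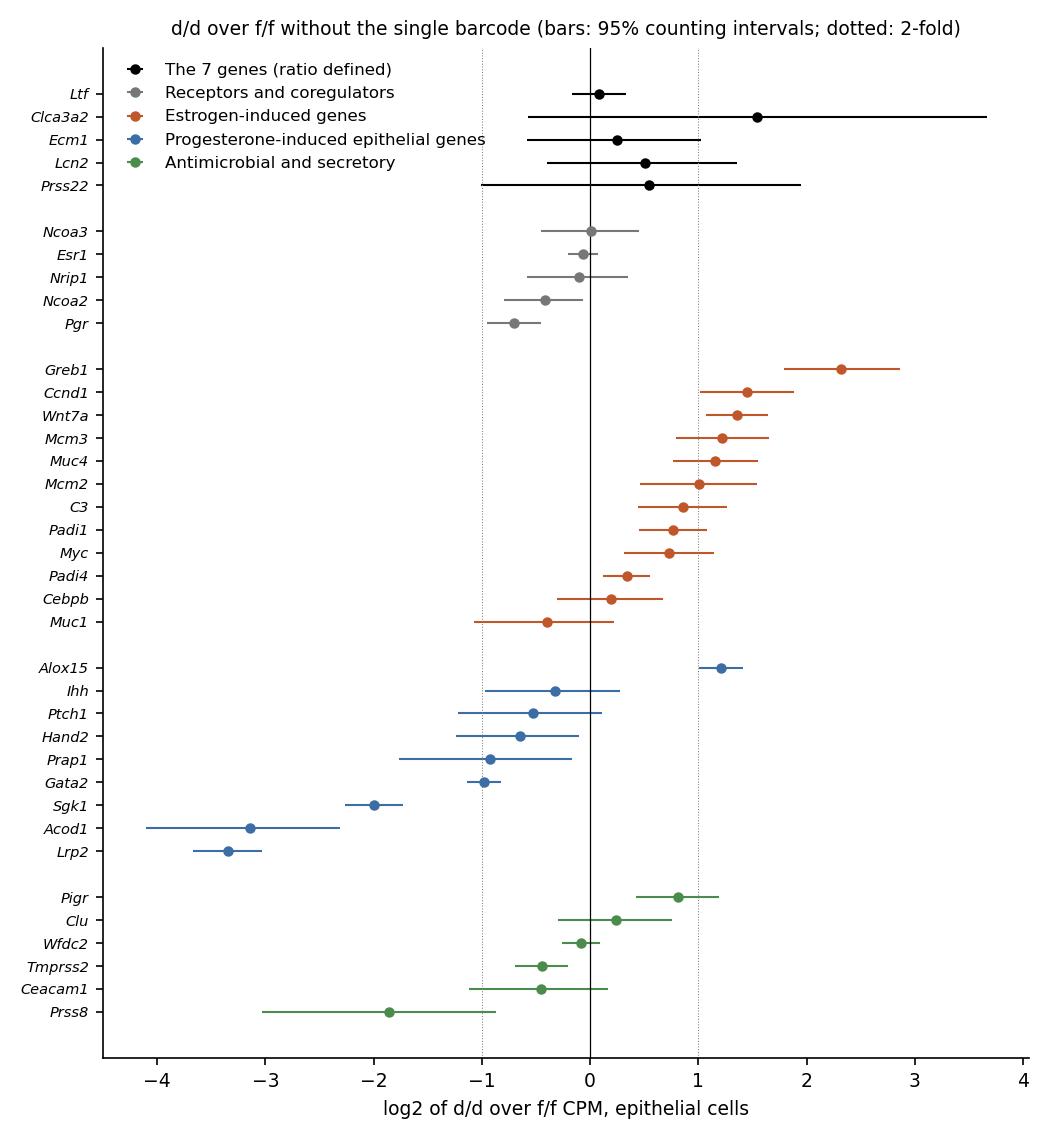
Log2 ratios of d/d over f/f in epithelial cells without the single barcode, for the 5 of the 7 genes with a defined ratio and for listed genes with at least 100 UMIs. Bars are 95% intervals of counting error and dotted lines mark 2-fold. Ltf lies at 0.09, Greb1 at 2.32 and Lrp2 at -3.34.

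More Ltf lay in barcodes above the mitochondrial limit than in the epithelial cells used for the comparison of genotypes without the single barcode. Barcodes with epithelial markers and over 25% mitochondrial UMIs numbered 87 for f/f against 77 for d/d, with medians of 7345 and 6724 UMIs and of 45.7% and 43.9% mitochondrial UMIs. They held 564 and 584 Ltf UMIs, and 90.8% and 89.6% of them had Ltf. A control barcode had 0 to 41 Ltf UMIs and a d/d barcode 0 to 63, with a median of 4 in both, and the highest barcode held 7.27% and 10.8% of the sum.

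As CPM of non-mitochondrial UMIs, Ltf was at 1225 in f/f and 1429 in d/d in these barcodes, a log2 ratio of 0.22 (0.05 to 0.39). In the cells of at most 10% it was at 251 and 267. Per 100 UMIs of the epithelial markers the values were 16.3 and 20.8, against 4.62 and 4.28. Thinned to 500 UMIs, 25.3% and 28.6% of these barcodes had Ltf, against 10.1% and 12.2%. Lcn2 was higher as CPM of non-mitochondrial UMIs, at 73.9 and 78.3 against 18.7 and 26.6. After thinning to 500 UMIs it was in 2 of the 87 f/f barcodes (2.30%, 0.28 to 8.06%) and 0 of the 77 d/d barcodes (0 to 4.68%). The thinned shares in cells of at most 10% were 0.99% and 1.29%, so the thinned shares did not show the rise. Ecm1 was at 32.6 and 22 non-mitochondrial CPM against 24.8 and 29.5. Clca3b and Arg1 had 0 UMIs in these barcodes with epithelial markers, while 1 Clca3b UMI lay in another f/f barcode over 25%. With all deposited barcodes in the comparison of genotypes, the summed log2 ratio was -0.082 with the single barcode and 0.47 without it. The part of RNA quality in these levels was not tested.

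**Figure D5:**
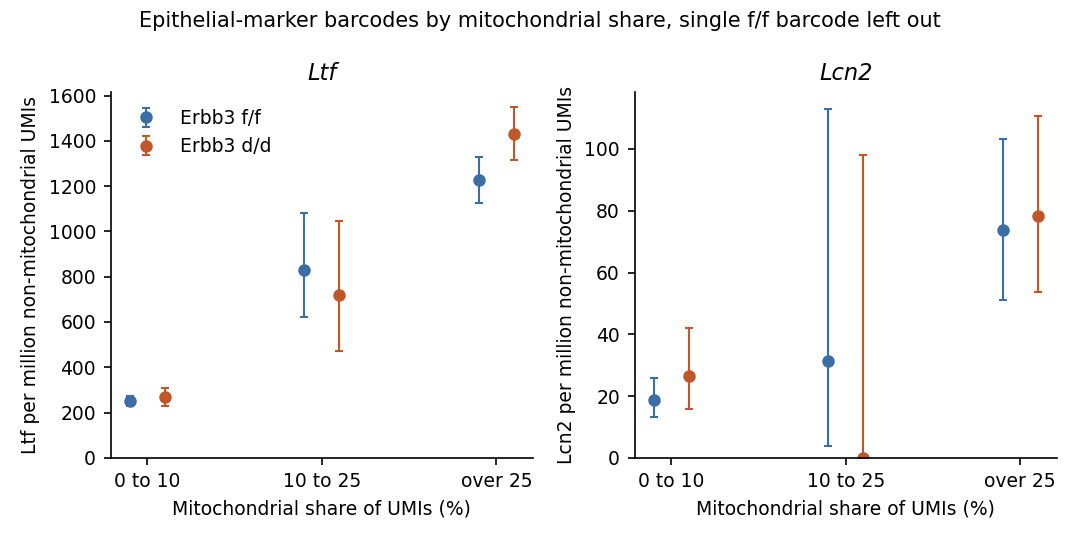
Ltf (left) and Lcn2 (right) in CPM of non-mitochondrial UMIs in barcodes with epithelial markers, by mitochondrial share, for f/f (blue) and d/d (orange), without the single barcode. Bars are 95% Poisson intervals. Ltf goes from 251 and 267 at up to 10% to 1225 and 1429 above 25%.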

How the data were processed

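Single-cell RNA was measured in 1 library per genotype (Erbb3 f/f and Erbb3 d/d). Per the file headers, Cell Ranger 9.0.0 made the matrices, and what the authors deposited are whole UMI counts for each gene in each barcode. The submitters' processing notes name the builds mm10 and GRCm39 with no role. The 7 genes, the gene lists and the comparisons were chosen with earlier results of these data known. Cells passing 200 genes and 10% mitochondrial UMIs were gated by markers without the 7 genes. UMIs were summed per library and class and divided by the class total (CPM). Intervals are exact Poisson, Clopper-Pearson or conditional binomial intervals at 95%, and intervals of differences between shares combine both in quadrature. Counts of 0 were limited at 3 counts. Intervals and limits cover counting error only. To compare shares of cells, each cell was thinned to 500 UMIs. The calculation of ratios and their intervals was checked on simulated counts with known fold changes, which it recovered. Those counts were drawn from the Poisson model that the intervals assume. The check therefore cannot show that the intervals hold where 1 barcode carries many UMIs. Scrublet called 1 f/f and 5 d/d doublets (0.0182% and 0.273%), too few to count as working, so none were removed. Named genes were the 7, list members past 2-fold with at least 100 UMIs and an interval off 0 (at most 8 a list), and the 10 genes most enriched in f/f cells with at least 2 UMIs of the 7. Esr1, Pgr, Gper1, Muc1, Pigr, Tmprss2, Cxcl15, Wfdc2 in epithelium and the other genes of the single barcode were named outside this rule. They were named after their values were seen. Erbb3, the deleted gene, was also named outside the rule. Some promoter sequences are not reported here. Tools were Python 3.11.15, numpy 2.4.6, scipy 1.17.1, pandas 2.3.3, scanpy 1.11.5, leidenalg 0.10.2 and edgeR 4.0.16 (TMM factors only).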

Additional observations from a re-analysis of the deposited data

Results flagged for a closer look

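Ltf was found at a level above its counting limit in barcodes that the comparisons did not use because over 10% of their UMIs were mitochondrial. In the f/f library these 280 barcodes held 694 Ltf UMIs, or 533.1 CPM, against a limit of 2.3 CPM, and 36.5% of the library's Ltf. In the d/d library 295 barcodes held 723 Ltf UMIs, or 626.4 CPM, against a limit of 2.6 CPM, and 65.0% of the library's Ltf.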

How the results depend on the processing

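No paired analysis was possible because each genotype had 1 library and no result came from a test, and for the same reason no library could be left out. With the single barcode the summed log2 ratio was -0.81, and it kept its sign except where that barcode was left out (0.18) and without cells that have a stromal marker UMI (0.14), which also removes the barcode. It was -0.082 with all deposited barcodes, -1.12 with a gate of 5 UMIs, -1.03 with a gate of 80%, -0.47 with Leiden clusters and -1.16 standardised to f/f subtype shares. For Ltf, all deposited barcodes gave 0.16, cells without stromal marker UMIs 0.086 and leaving out the barcode 0.086; for Ecm1 the last 2 gave 0.072 and 0.25. Without the barcode, an addition made after its counts were seen, as were the alternatives run on it, the summed ratio of 0.18 was 0.47 with all deposited barcodes, 0.59 without cycling cells and -0.17 standardised to f/f subtype shares. It was 0.22 with a gate of 2 UMIs and 0.34 with Leiden clusters, and the intervals of these and of the values with all deposited barcodes and without cycling cells lay above 0. Scaled to epithelial markers it was -0.02. Ltf without the barcode ranged from -0.40, standardised to f/f subtype shares, to 0.60, without cycling cells. The standardised values have no interval and give the 22 d/d Lrp2-type cells the weight of the f/f ones.

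The ratio of Ltf in f/f Lrp2-type over other epithelial cells (-0.55) was 0.065 with all deposited barcodes. The 5.78-point difference in Ltf between f/f cells with and without Lcn2 was 25.3 with all deposited barcodes and -10.2 after thinning to 500 UMIs. Epithelial over stromal Ltf in f/f (2.26) was 2.84 with a gate of 80% and 3.01 with Leiden clusters. Marker scaling moved all log2 ratios by -0.20, which left 4 of 12 estrogen-induced genes at least 2-fold higher and 5 of 9 progesterone-induced genes lower. TMM left 5 and 4. With a minimum of 20 UMIs 11 estrogen-induced genes were higher, and 4 progesterone-induced, 4 antimicrobial and 1 receptor gene lower, against 6, 3, 1 and 0 at 100 UMIs. Where the barcode was not at issue the causes were not tested. Depth limits Clca3b, Clca3a2, Prss22 and Arg1 most, and the probe sequences, the mice per library and the roles of the named builds remain unknown.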
